A study of Homo sapiens with 18 samples.

Results

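The genes described here are G0S2 and 9 genes that release, store or take up fatty acids: PNPLA2, ABHD5 and MGLL, which act in lipolysis; PLIN2 and PLIN3, which coat lipid droplets; DGAT1 and DGAT2, which make triglyceride; and LPL and CD36, which bring fatty acids to and into the cell. They were chosen by name, as the rows of the deposited tables whose gene symbol equals one of the 10 symbols. Of the 10 genes, 9 were listed in the MDA-MB-231 table among 14308 genes and 9 in the T47D table among 14768 genes, and 8 were in both. LPL was listed in MDA-MB-231 only and CD36 in T47D only.

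Cells keep spare fatty acids as triglyceride in lipid droplets, organelles with a neutral core and a coat of proteins. The lipase PNPLA2 (also called ATGL) starts their breakdown, with ABHD5 (CGI-58) as its activator and G0S2 as its protein inhibitor, and the monoglyceride lipase MGLL takes the last step. DGAT1 and DGAT2 run the last step of the reverse path, and perilipins such as PLIN2 and PLIN3 cover the droplet surface.

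RNA was sequenced from MDA-MB-231 and T47D, human lines from breast cancer of which the first lacks the estrogen receptor and the second has it; both carried a G0S2 gene that doxycycline switches on. Each line gave 3 libraries at day 0 with no doxycycline (here the control), 3 at day 3 and 3 at day 15 of exposure to 0.5 ug/ml, so that n = 3 in each of the 6 groups and 18 libraries were measured. The labels name no group given doxycycline without the introduced gene, so what G0S2, the drug or the vector does cannot be told apart. They also name no group kept without doxycycline until day 3 or day 15. Time in culture can therefore not be told apart from exposure either. Nothing in the labels ties the 3 libraries of a group to separate cultures, and the p-values then reflect only how far these libraries spread, which may be technical. The design text of the series does speak of biological triplicates, but for parental and Aza-resistant lines, which none of the sample labels names; the labels were followed here. Both lines carried their own identity markers: all 8 T47D markers (ESR1, PGR, FOXA1 and others) were listed in T47D and all 8 MDA-MB-231 markers (VIM, AXL, CAV1 and others) in MDA-MB-231. SPARC, of the latter, had only 15 to 26 reads. Of the T47D markers 5 were also listed in MDA-MB-231 (GATA3, KRT8, KRT18, KRT19 and CDH1). Their summed control level was 893 to 955 CPM there, against 9045 to 9302 CPM for all 8 in T47D. Of the MDA-MB-231 markers, 2 were also listed in T47D (CD44 and LOX). Of the 10 adipocyte markers 2 were listed in MDA-MB-231 and 4 in T47D, where their summed level was 3.80 to 4.57 CPM in control and 3.32 to 4.30 CPM at day 15.

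Levels are given in CPM (read counts scaled to a library of 1 M, or mega, reads), after the pseudocount in the deposited log2 values was removed. The MDA-MB-231 libraries held 37.0 to 52.4 M reads and the T47D libraries 40.1 to 51.0 M. Replicate 2 of T47D at day 15 stood apart from the others: the chi-square per degree of freedom over genes was 14.5 and 23.5 against its 2 replicates, and 1.75 to 5.91 in the other pairs of libraries of the same group. T47D results at day 15 are therefore also given without it. A gene was called changed when limma's Benjamini-Hochberg adjusted p, over all genes of the table, was under 0.05; a fold is a difference of deposited log2 values, with its standard error (SE) from a fit to all 9 libraries of that line. In bulk RNA, a change in how many cells express a gene and a change in RNA per cell cannot be told apart. The day 3 and day 15 comparisons of a line share its control libraries and are set side by side.

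G0S2 itself checks the labels. In the MDA-MB-231 control libraries it was at 25.48, 25.02 and 25.09 CPM, against 1484, 1506 and 1429 CPM at day 3 and 1209, 1294 and 1103 CPM at day 15. The T47D control libraries held 40, 14 and 15 reads of it, or 0.900, 0.277 and 0.376 CPM, against 883, 855 and 844 CPM at day 3 and 766, 993 and 736 CPM at day 15. Every induced library was far above every control library in both lines, as the plot of G0S2 by group shows. The lines began at different levels and reached the same order of magnitude. On the log2 scale G0S2 in MDA-MB-231 rose by 5.87 at day 3 (SE 0.0459, limma adjusted p = 1.31e-14) and 5.57 at day 15 (adjusted p = 2.31e-14). The T47D rise was 10.67 at day 3 (SE 0.371, limma adjusted p = 9.54e-06) and 10.61 at day 15 (adjusted p = 7.86e-06). Without the T47D library that stood apart the day 15 value was 10.48. From day 3 to day 15 G0S2 fell by 0.30 in MDA-MB-231 (limma adjusted p = 0.00554), where the groups did not overlap, a call lost in a fit of only those 6 libraries (0.0835) and without the trended, robust moderation of the variance (0.0939). In T47D the difference was -0.06 (95% interval -0.96 to 0.83, limma adjusted p = 0.962), and -0.20 without the library that stood apart (adjusted p = 0.823).

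**Figure D1:**
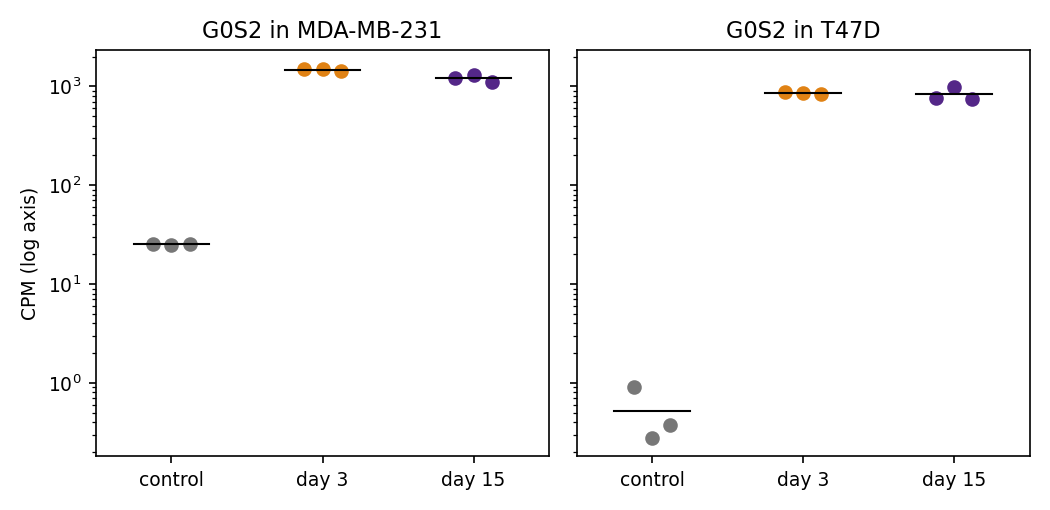
G0S2 level in each library in CPM on a log axis, by group, for MDA-MB-231 (left) and T47D (right); points are libraries and bars are group means. Control libraries sit near 25 CPM in MDA-MB-231 and under 1 CPM in T47D, and all induced libraries of both lines lie between 736 and 1506 CPM.

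G0S2 and the gene of its target lipase are shown by the 250 bases before their starts, because these are the endogenous promoters of the inhibitor and of the lipase whose RNA is compared below. They are from RefSeq (GRCh38.p14), both on the plus strand, G0S2 at chr1:209675162-209675411 and PNPLA2 at chr11:818664-818913. The starts here are those of RefSeq. The GENCODE start of PNPLA2, 818902, lies inside its printed stretch, and that of G0S2, 209675420, lies after its stretch. Capitals mark matches to the 9 motifs searched on both strands.
G0S2: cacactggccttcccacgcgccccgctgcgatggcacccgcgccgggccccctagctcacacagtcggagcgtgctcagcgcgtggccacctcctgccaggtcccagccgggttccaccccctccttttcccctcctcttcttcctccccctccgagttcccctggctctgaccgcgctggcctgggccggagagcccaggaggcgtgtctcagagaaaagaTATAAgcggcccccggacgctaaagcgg
PNPLA2: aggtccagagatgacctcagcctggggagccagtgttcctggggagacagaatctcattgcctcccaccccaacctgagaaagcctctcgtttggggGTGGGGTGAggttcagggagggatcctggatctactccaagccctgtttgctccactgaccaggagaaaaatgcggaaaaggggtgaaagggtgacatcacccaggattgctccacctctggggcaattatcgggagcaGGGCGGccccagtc
The G0S2 stretch held 1 match, to the TATA core (TATAA), which begins 28 bases before the start; 18.9% of the 35116 RefSeq promoters have one in the same window. PNPLA2 has a GC box (GGGCGG, in 42.6% of promoters) 14 bases before its RefSeq start. It also has a match on the minus strand to the sterol regulatory element (TCACNCCAC, in 0.883% of promoters), 153 bases before the start. Neither stretch matched the CCAAT box (CCAAT), the FoxO core (GTAAACA), the E-box (CACGTG), the PPAR direct repeat, the interferon response core or the estrogen response element. No 2 of the matched motifs overlap. These are matches of letters, and no binding was measured. The introduced G0S2 copy is driven by doxycycline, and the tables count its reads together with those of the endogenous gene. RefSeq entries matched 6 of the 10 genes.

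At day 3, no gene of the set other than G0S2 was called in either line in the main fit. The mean G0S2 level was higher at day 3 than at day 15 in both lines, in T47D without a call between these days. The call was made for 1 of 9 genes, G0S2, in MDA-MB-231, against 1.77% of all genes, and for 1 of 9 in T47D, against 1.88%. Without the T47D library that stood apart it was still 1 of 9 in T47D, against 5.05%. None of the other 8 genes in MDA-MB-231 had an unadjusted limma p under 0.05, and 1 did in T47D, CD36 (log2 fold -0.28, SE 0.0919, adjusted p = 0.221). CD36 was called at day 3 in a fit of only the 6 libraries compared (limma adjusted p = 0.0495). At day 15, MDA-MB-231 had calls for 3 of 9 genes (8.2% of all genes): G0S2 and LPL rose and PNPLA2 fell. Leaving out G0S2, which was induced by design, 1 of the other 8 rose and 1 fell (25%). In T47D 4 of 9 were called at day 15 (11.2% of all genes): G0S2, MGLL and DGAT2 rose and CD36 fell. Leaving out G0S2, 2 of the other 8 rose and 1 fell (37.5%). Without the T47D library that stood apart, 5 of 9 were called, with ABHD5 as the additional fall, against 25.1% of all genes.

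**Figure D2:**
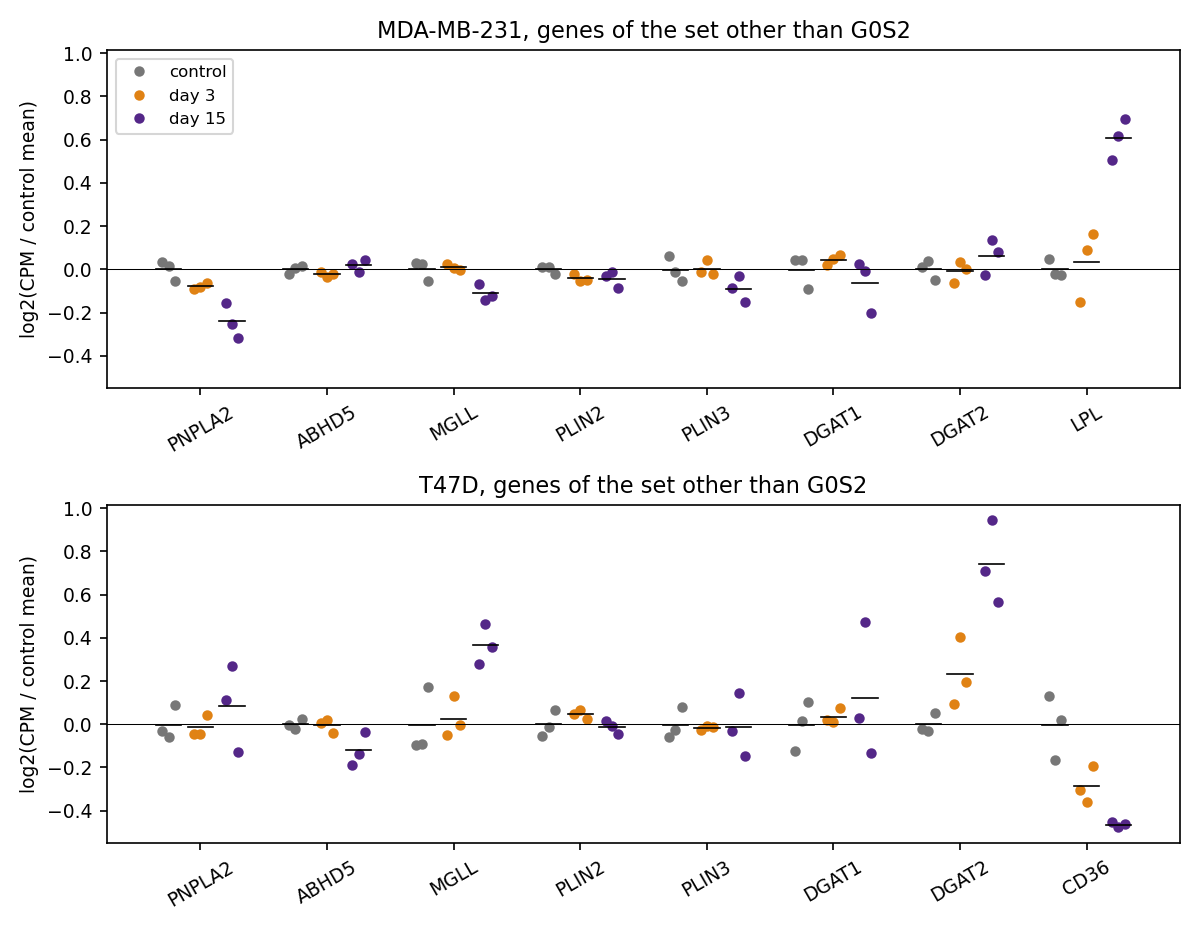
Level of each gene other than G0S2 in every library as log2 of its CPM over the mean of the 3 control libraries of the line, by group (grey control, orange day 3, purple day 15); bars are means of the log2 values. The day 15 libraries of PNPLA2, MGLL and LPL in MDA-MB-231 lie wholly outside their controls. So do those of ABHD5, MGLL, DGAT2 and CD36 in T47D. Of these, MGLL in MDA-MB-231 and ABHD5 in T47D were not called in the main fit. How often all genes separate in this way is not given here, so the separation is a description only. PLIN2 stays close to 0 throughout.

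PNPLA2, the lipase that G0S2 inhibits as a protein, lies on chromosome 11 of GRCh38 from 818902 to 825573. In MDA-MB-231 its RNA was at 40.7, 40.1 and 38.2 CPM in control, 37.3, 37.4 and 38.0 CPM at day 3 and 35.6, 33.3 and 31.9 CPM at day 15. All day 15 libraries were below all others, and the day 3 libraries lay just under the controls. It fell by 0.24 on the log2 scale at day 15 (SE 0.0435, limma adjusted p = 0.000793), a mean of 0.847 times control. At day 3 the log2 fold was -0.08 (95% interval -0.17 to 0.01, adjusted p = 0.457). In T47D the same gene was at 33.8, 33.2 and 36.8 CPM in control, 33.6, 33.6 and 35.7 CPM at day 3 and 37.4, 41.6 and 31.6 CPM at day 15. The day 15 libraries reached both above and below the controls, and the highest was the library that stood apart. The T47D log2 fold at day 15 was 0.08 (95% interval -0.09 to 0.26, limma adjusted p = 0.596), and -0.01 without that library (adjusted p = 0.94).

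Set against its target, G0S2 RNA per kilobase of transcript was 1.75 to 1.84 times that of PNPLA2 in the MDA-MB-231 control libraries. The ratio was 105.5 to 112.8 at day 3 and 95.1 to 108.9 at day 15. In T47D it went from 0.0234 to 0.0746 in control to 66.3 to 73.7 at day 3 and 57.5 to 66.8 at day 15. The inhibitor's RNA was thus above the lipase's before induction in MDA-MB-231 and far below it in T47D. The control cells also carry the introduced copy. Any reads from it without doxycycline cannot be told apart from those of the endogenous gene. These ratios use the length of the endogenous G0S2 transcript, and that of the introduced copy is not given in the sources used here.

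ABHD5, the activator of PNPLA2, did not pass the test in any comparison. Its MDA-MB-231 libraries spanned 111.5 to 118.1 CPM over all 3 groups, with log2 folds of -0.02 at day 3 (95% interval -0.08 to 0.04) and 0.02 at day 15 (-0.04 to 0.08). In T47D it was at 79.6, 78.6 and 81.1 CPM in control, 80.0, 80.9 and 77.5 CPM at day 3 and 70.0, 72.5 and 77.9 CPM at day 15. The day 15 libraries lay below the controls, 1 of them by a small margin. The log2 fold at day 15 was -0.12 (SE 0.0422, limma adjusted p = 0.0885), and it was called without day 15 replicate 2 (-0.11, adjusted p = 0.0412) and without replicate 3 (-0.16, adjusted p = 0.0123).

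MGLL, which splits the last fatty acid from glycerol, lies on the minus strand of chromosome 3 of GRCh38 from 127689062 to 128052190. In T47D it was at 8.14, 8.17 and 9.79 CPM in control, 8.40, 9.53 and 8.68 CPM at day 3 and 10.55, 11.99 and 11.16 CPM at day 15. The day 15 libraries were above all others, and the nearest control was replicate 3. MGLL rose by 0.37 (SE 0.0882, limma adjusted p = 0.0144), or 1.29 times control. The value without the library that stood apart was 0.32 (adjusted p = 0.00711). The call rested on the controls: it was lost on leaving out control replicate 1 (0.32, limma adjusted p = 0.0771) or 2 (0.33, adjusted p = 0.0791). In MDA-MB-231, where the level was higher, MGLL was at 59.5, 59.4 and 56.2 CPM in control, 59.3, 58.6 and 58.3 CPM at day 3 and 55.6, 53.0 and 53.7 CPM at day 15. There the day 15 libraries were lowest. The log2 fold was -0.11 (SE 0.0352, limma adjusted p = 0.0517), and it was called without control replicate 3 (-0.14, adjusted p = 0.017).

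The perilipins of the set, PLIN2 and PLIN3, moved little. PLIN2, the perilipin most cells place on their droplets, was at 66.1, 66.1 and 64.6 CPM in the MDA-MB-231 controls, 64.6, 63.2 and 63.5 CPM at day 3 and 64.2, 65.1 and 61.8 CPM at day 15. In T47D it was at 32.0, 32.9 and 34.7 CPM in control, 34.3, 34.7 and 33.7 CPM at day 3 and 33.6, 32.9 and 32.1 CPM at day 15. The control and day 15 ranges overlapped in both lines. The 95% intervals of its log2 folds against control were -0.11 to 0.03 at day 3 and -0.11 to 0.02 at day 15 in MDA-MB-231, and -0.05 to 0.15 and -0.11 to 0.09 in T47D. Without the library that stood apart the T47D log2 fold at day 15 was -0.01.

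PLIN3, a perilipin also found in the cytosol, was the most abundant gene of the set per length in the controls of both lines. In MDA-MB-231 it was at 143.2, 136.1 and 132.4 CPM in control and 129.1, 134.2 and 123.8 CPM at day 15, with 135.2 to 141.3 CPM at day 3. One day 15 library lay within the control range. The log2 fold at day 15 was -0.09 (SE 0.0326, limma adjusted p = 0.0893), called without control replicate 3 (-0.11, adjusted p = 0.0292) and without day 15 replicate 2 (-0.12, adjusted p = 0.0177). In T47D PLIN3 ranged over 72.6 to 79.9 CPM in control and 68.1 to 83.6 CPM at day 15, the top of which was again the library that stood apart, with a log2 fold of -0.01 (95% interval -0.14 to 0.12), and -0.09 without that library (limma adjusted p = 0.119).

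Of the pair of enzymes that join the third fatty acid to diacylglycerol, one rose in T47D. DGAT2, on chromosome 11 of GRCh38 from 75759512 to 75801535, was at 2.41, 2.39 and 2.53 CPM in the T47D controls (101 to 121 reads), 2.61, 3.23 and 2.80 CPM at day 3 and 3.998, 4.697 and 3.615 CPM at day 15 (173 to 214 reads). The 3 groups followed one another without overlap. At day 15 DGAT2 had risen by 0.72 (SE 0.123, limma adjusted p = 0.00142), 1.68 times control in CPM, and by 0.62 without the library that stood apart (adjusted p = 0.000722). At day 3 the log2 fold was 0.23 (95% interval -0.04 to 0.49, adjusted p = 0.597). In MDA-MB-231 DGAT2 was at 9.40, 9.58 and 9.03 CPM in control, 8.95, 9.57 and 9.35 CPM at day 3 and 9.18, 10.3 and 9.87 CPM at day 15, groups that overlap. Its log2 fold there at day 15 was 0.06 (95% interval -0.08 to 0.21, limma adjusted p = 0.632).

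DGAT1, the other of the pair, was called in no comparison. It had 10.2 to 11.2 CPM in control and 9.43 to 11.0 CPM at day 15 in MDA-MB-231 (log2 fold -0.06, 95% interval -0.21 to 0.09). In T47D it had 16.3, 17.9 and 19.1 CPM in control and 18.1, 24.7 and 16.2 CPM at day 15 (log2 fold 0.12, 95% interval -0.15 to 0.40). The library that stood apart held the value of 24.7 CPM, and without it the T47D log2 fold was -0.05 (limma adjusted p = 0.633).

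LPL, the lipoprotein lipase, releases fatty acids from circulating lipoproteins for uptake. In MDA-MB-231 it was at 1.79, 1.71 and 1.70 CPM in control (77 to 89 reads), 1.56, 1.85 and 1.94 CPM at day 3 and 2.47, 2.66 and 2.81 CPM at day 15 (102 to 112 reads). The day 15 libraries were above all others, and the day 3 libraries lay around the controls. LPL rose by 0.59 (SE 0.139, limma adjusted p = 0.00847) at day 15, 1.52 times control, against 0.03 (95% interval -0.25 to 0.32) at day 3. Since both levels are low, the log2 scale with its pseudocount slightly understates this change.

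CD36, a membrane receptor that aids the entry of long-chain fatty acids, is on chromosome 7 of GRCh38 from 80369575 to 80679277. In T47D it was at 7.54, 6.13 and 6.96 CPM in control (278 to 335 reads), 5.57, 5.35 and 6.01 CPM at day 3 and 5.03, 4.94 and 4.99 CPM at day 15 (225 to 239 reads). The groups did not overlap. CD36 had an SD of 0.71 CPM in control, 0.34 CPM at day 3 and 0.0435 CPM at day 15, each from only 3 libraries. It fell by 0.45 at day 15 (SE 0.0919, limma adjusted p = 0.00522), to 0.725 times control, and by 0.45 also without the library that stood apart (adjusted p = 0.00134).

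**Figure D3:**
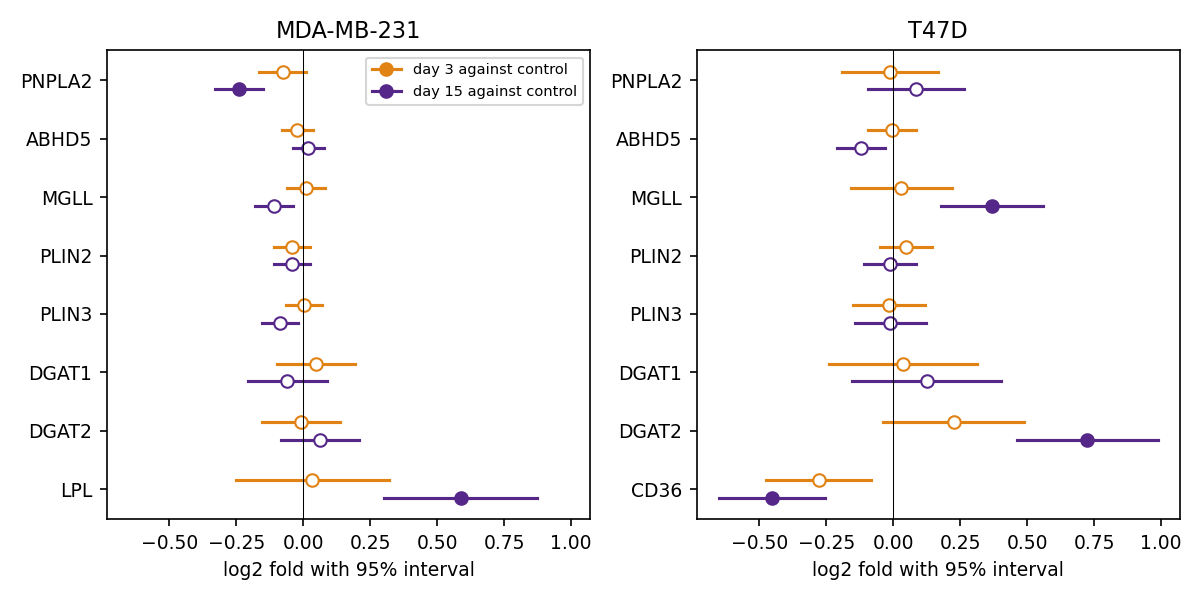
Log2 fold against control at day 3 (orange) and day 15 (purple) for each gene other than G0S2, with 95% intervals, in MDA-MB-231 (left) and T47D (right); filled points passed limma's adjusted p under 0.05. Filled points are PNPLA2 (-0.24) and LPL (0.59) in MDA-MB-231 and MGLL (0.37), DGAT2 (0.72) and CD36 (-0.45) in T47D, all at day 15.

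Between day 3 and day 15, MDA-MB-231 had calls for 4 of 9 genes (5.33% of all genes): G0S2, PNPLA2 and MGLL fell and LPL rose. The PNPLA2 value was -0.16 (limma adjusted p = 0.0289), the MGLL value -0.12 (adjusted p = 0.0445) and the LPL value 0.55 (adjusted p = 0.0198). In T47D 2 of 9 were called (5.58% of all genes), with MGLL higher by 0.34 (limma adjusted p = 0.0383) and DGAT2 by 0.50 (adjusted p = 0.0294). Without the library that stood apart both were again called, MGLL at 0.29 (limma adjusted p = 0.0199) and DGAT2 at 0.40 (adjusted p = 0.0365), against 17.6% of all genes. Other than that of G0S2, these calls leaned on single libraries. PNPLA2 lost its call without MDA-MB-231 day 15 replicate 3 (-0.12, adjusted p = 0.15) or without day 3 replicate 1 (adjusted p = 0.103), 2 (0.108) or 3 (0.0794). LPL lost it without day 15 replicate 3 (0.51, adjusted p = 0.0899) or day 3 replicates 1 (adjusted p = 0.127) or 2 (0.0704). DGAT2 lost it without T47D day 15 replicate 1 (0.51, adjusted p = 0.0835) or day 3 replicates 1 (adjusted p = 0.144) or 3 (0.105). The call of MGLL from day 3 to day 15 was lost on leaving out most single libraries in either line, with adjusted p up to 0.178 in MDA-MB-231 and 0.173 in T47D.

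Whether the lines responded differently was tested directly, as the T47D fold less the MDA-MB-231 fold over the 12666 genes in both tables. At day 3, 1 of 8 genes differed, G0S2 by 4.81 (limma adjusted p = 3.46e-06), against 2.46% of all genes. At day 15, 4 of 8 differed (9.44% of all genes), all with the higher fold in T47D. These were G0S2 (5.04, adjusted p = 1.94e-06), DGAT2 (0.66, SE 0.138, adjusted p = 0.00317), MGLL (0.48, SE 0.0922, adjusted p = 0.00156) and PNPLA2 (0.32, SE 0.0985, adjusted p = 0.0426). Leaving out G0S2, 3 of 7 differed, against the same 9.44%. For MGLL the folds behind the difference were 0.37, called, in T47D and -0.11, not called, in MDA-MB-231. Without the T47D library that stood apart, DGAT2 differed by 0.56 (limma adjusted p = 0.007) and MGLL by 0.43 (adjusted p = 0.00122), while PNPLA2 differed by 0.23 and lost its call (adjusted p = 0.0571), so that 3 of 8 differed, against 10.7% of all genes. The PNPLA2 call was also lost on leaving out most other single libraries, with adjusted p up to 0.108. ABHD5 differed by -0.14 (limma adjusted p = 0.0739), called only without T47D day 15 replicate 3 (-0.18, adjusted p = 0.0054). LPL and CD36 are each in 1 table, so their responses could not be compared between lines.

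Before induction the order of the genes was similar at the top and differed below. In CPM per kilobase of transcript, the MDA-MB-231 control means ran PLIN3 58.8, PLIN2 33.3, G0S2 29.1, ABHD5 21.3, PNPLA2 16.3, MGLL 11.8, DGAT1 2.92, DGAT2 1.58 and LPL 0.451, and no neighbouring ranges of the 3 libraries overlapped. In T47D they ran PLIN3 32.4, PLIN2 16.8, ABHD5 14.9, PNPLA2 14.3, DGAT1 4.79, CD36 2.91, MGLL 1.76, G0S2 0.598 and DGAT2 0.412. There the ranges of ABHD5 and PNPLA2 overlapped, as did those of G0S2 and DGAT2. In both lines the control level of G0S2 may include reads of the introduced copy. MGLL stood above DGAT1 in MDA-MB-231 and below it in T47D. The tables were scaled separately, so levels are set side by side across the lines with no test. Reads of genes on the opposite strand may be counted with these genes, since the use of strand in counting is not given. On the GENCODE annotation such a gene overlaps G0S2, PNPLA2, ABHD5, MGLL, PLIN3, DGAT1, DGAT2 and CD36, and none overlaps PLIN2 or LPL.

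The wider pathway was followed through 98 other genes in 4 lists (lipolysis and its regulators, glycerolipid and sterol ester synthesis, droplet coat and assembly, and fatty acid uptake, binding and activation), of which 71 were listed in MDA-MB-231 and 66 in T47D. In MDA-MB-231 at day 3, 6 of the 71 rose and none fell in the main fit (1.77% of all genes called). The median log2 fold was 0.04 against 0.00 over all genes. In a fit of only the 6 libraries compared, AQP3 (-0.21, limma adjusted p = 0.0265) and LPCAT1 (-0.09, adjusted p = 0.0389) were also called, as lower. LIPA (0.09, limma adjusted p = 0.0263) and ACSL4 (0.08, adjusted p = 0.0463) were added there as higher. Each was also called with the replicate number as a block. At day 15, 4 rose and 4 fell (8.2% of all genes), and the median was -0.01. In T47D at day 3, 1 of the 66 rose and none fell (1.88% of all genes), with a median of -0.02. That count also depended on day 15 replicate 2, which enters the estimate of the spread: without it 3 rose and 4 fell, against 5.05% of all genes, and among these AGPAT5 (-0.16, limma adjusted p = 0.00286), SEL1L (-0.10, adjusted p = 0.00788) and SOAT1 (-0.12, adjusted p = 0.0215) were lower. At day 15, 4 rose and 10 fell (11.2% of all genes), with a median of -0.03, and without the library that stood apart 5 rose and 20 fell, against 25.1% of all genes.

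**Figure D4:**
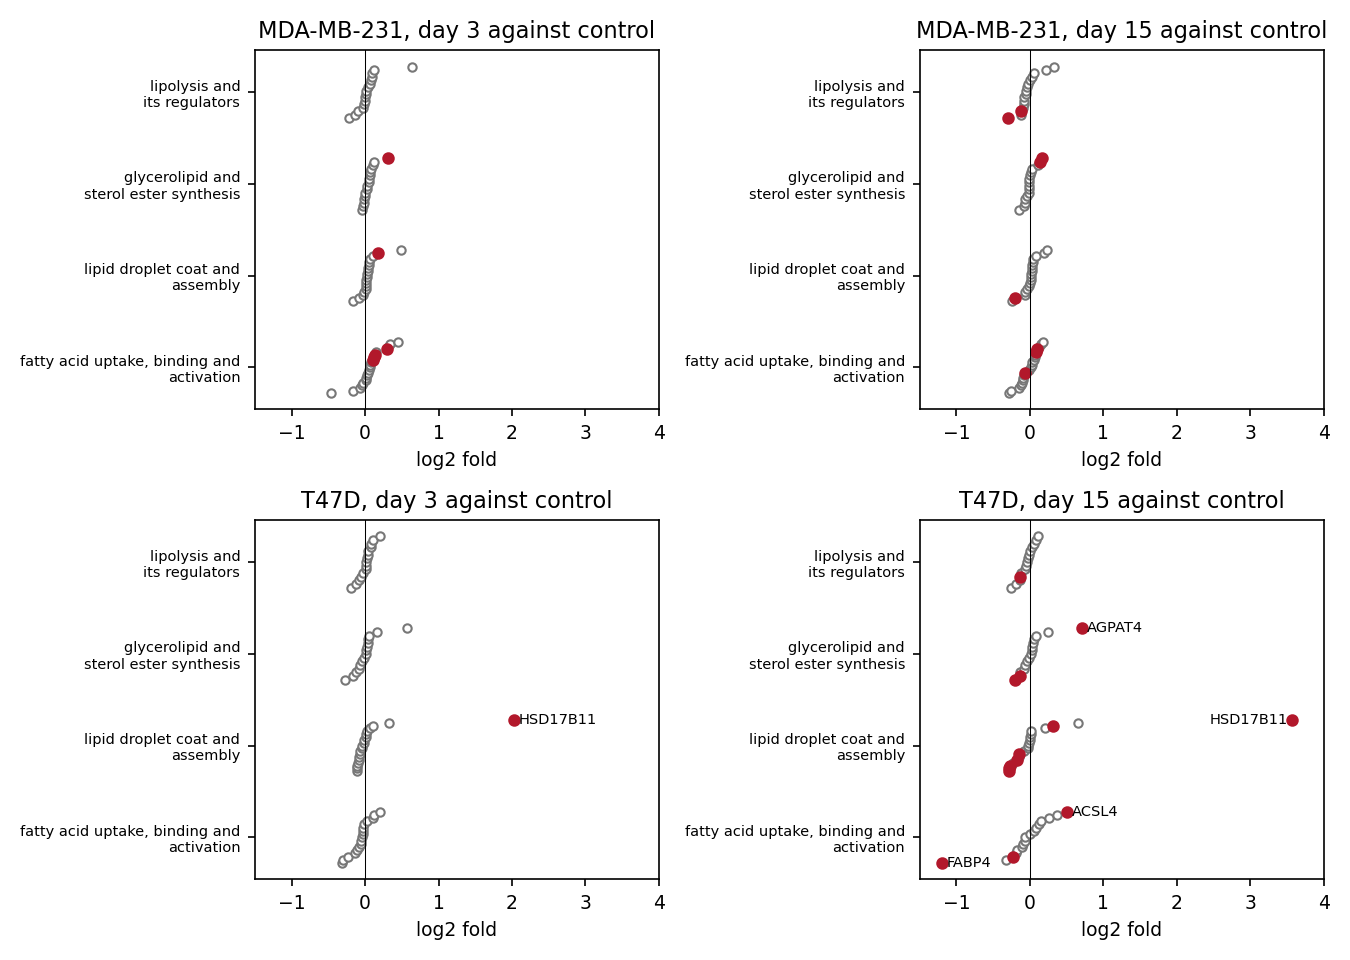
Log2 fold against control of each listed gene of the 4 pathway lists, at day 3 (left) and day 15 (right), in MDA-MB-231 (top) and T47D (bottom); red points passed limma's adjusted p under 0.05, and called genes far from 0 are named. HSD17B11 in T47D (2.02 and 3.57) lies far from all other points.

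Of the 6 genes that rose in MDA-MB-231 at day 3, 4 were of the uptake, binding and activation list, 1 of the synthesis list and 1 of the coat list. LPIN1, of the synthesis list, the phosphatidate phosphatase that makes diacylglycerol, was at 93.5, 97.2 and 97.6 CPM in control, 118.3, 119.0 and 120.8 CPM at day 3 and 107.4, 106.7 and 104.0 CPM at day 15. Its day 3 libraries were highest and its day 15 libraries lay between them and the controls. It rose by 0.31 (SE 0.0290, limma adjusted p = 4.27e-08) at day 3, and at day 15 stood 0.14 above control (adjusted p = 0.0026). LIPG, the endothelial lipase, which acts on lipoproteins, was at 17.7, 16.0 and 17.2 CPM in control, 20.2, 21.3 and 20.8 CPM at day 3 and 15.10, 15.71 and 15.21 CPM at day 15. It rose by 0.29 at day 3 (SE 0.0551, limma adjusted p = 0.00241) and was 0.44 lower at day 15 than at day 3 (log2 fold -0.44, adjusted p = 2.04e-05). The acyl-CoA synthetases ACSL1 (0.13, limma adjusted p = 0.0103) and ACSL3 (0.12, adjusted p = 0.023), the sterol synthesis enzyme LSS (0.17, adjusted p = 0.00426) and SEL1L (0.11, adjusted p = 0.0271), needed for LPL to leave the endoplasmic reticulum, were the other rises at day 3. Calls among these were lost without single libraries: LSS without day 3 replicate 2 (limma adjusted p = 0.0608), ACSL1 on leaving out day 3 replicate 1 (0.0801), day 3 replicate 2 (0.104) or control replicate 2 (0.107), and ACSL3 and SEL1L without any of the 3 day 3 libraries or control replicates 1 or 2 (up to 0.183).

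At day 15 in MDA-MB-231, GPAT3, which starts glycerolipid synthesis, was higher by 0.17 (SE 0.0303, limma adjusted p = 0.000651), with 91.5 to 96.4 CPM against 82.9 to 85.3 CPM in control. AQP3, a channel for water and glycerol, was lower by 0.30 (log2 fold -0.30, SE 0.0620, limma adjusted p = 0.00268), with 13.3 to 15.5 CPM against 16.9 to 17.8 CPM. The fall of TMEM159 (LDAF1), which helps droplets form, by 0.20 (limma adjusted p = 0.0318) was lost on leaving out control replicate 1 (0.161), control replicate 2 (0.125), day 15 replicate 1 (0.129) or day 15 replicate 3 (0.102). ABHD12, a serine hydrolase, was lower by 0.12 (log2 fold -0.12, limma adjusted p = 0.0261), a call lost without any of 4 libraries, which were control replicates 1 and 2 and day 15 replicates 1 and 3 (up to 0.117). The other calls at day 15 were small: ACSL5 (0.10, limma adjusted p = 0.015), SEL1L (0.09, adjusted p = 0.0332) and CAVIN1 (-0.07, adjusted p = 0.0289). ACSL5 lost its call without control replicate 1 (limma adjusted p = 0.0658) or day 15 replicate 3 (0.0669). SEL1L and CAVIN1 lost theirs without control replicates 1 or 2, day 15 replicate 1 or day 3 replicates 1 or 2, and SEL1L also without day 15 replicate 3, with adjusted p up to 0.208 and 0.175.

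**Figure D5:**
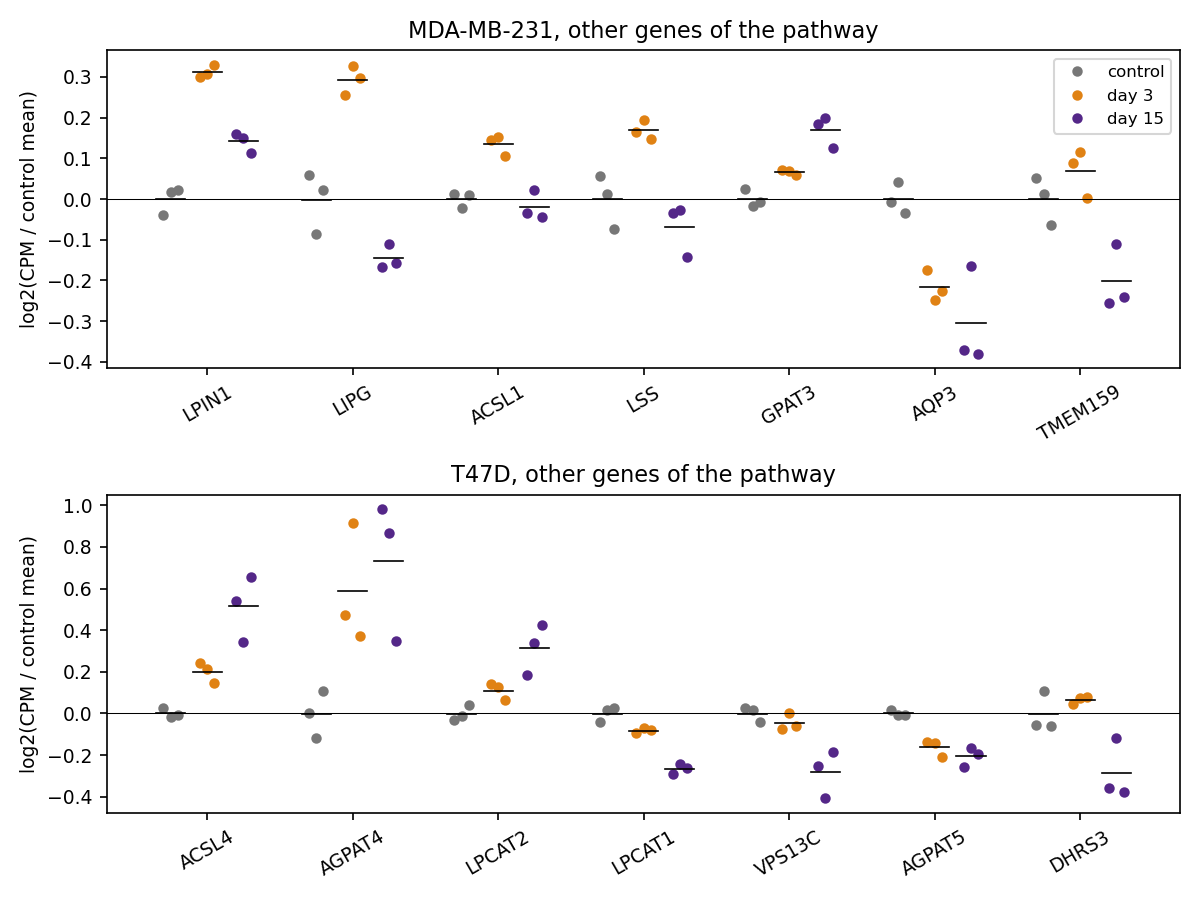
Level of other pathway genes in every library as log2 of CPM over the control mean of the line, by group (grey control, orange day 3, purple day 15); bars are means of the log2 values. LPIN1, LIPG, ACSL1 and LSS are highest at day 3 in MDA-MB-231 (top), and in T47D (bottom) ACSL4 climbs while LPCAT1, VPS13C and AGPAT5 decline.

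In T47D the gene of these lists that changed most was HSD17B11, a dehydrogenase that sits on lipid droplets. Its reads numbered 7, 10 and 5 in the control libraries, 41, 34 and 39 at day 3 and 109, 128 and 125 at day 15, so that the groups were far apart although the level stayed low, at 2.38 to 2.81 CPM at day 15. It rose by 2.02 (SE 0.195, limma adjusted p = 1.18e-05) at day 3 and by 3.57 (adjusted p = 2.39e-08) at day 15, and by 3.51 without the library that stood apart. In MDA-MB-231 it was at 152.5 to 165.6 CPM in every group, with a log2 fold of 0.00 at day 15. The difference between the lines was 3.57 (limma adjusted p = 2.82e-14). VIM, AXL and CAV1, which mark MDA-MB-231, were not listed in T47D, and the summed level of the 2 that were, CD44 and LOX, was 11.3 to 13.2 CPM in control and 7.42 to 9.33 CPM at day 15. A gene that was not listed may still have had reads, since which low genes were dropped is not given. The cause of the HSD17B11 rise was not tested.

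ACSL4, an acyl-CoA synthetase that prefers arachidonate, also rose in T47D, from 7.56, 7.32 and 7.37 CPM in control over 8.76, 8.60 and 8.20 CPM at day 3 to 10.8, 9.42 and 11.7 CPM at day 15. Its log2 fold was 0.51 at day 15 (SE 0.0824, limma adjusted p = 0.00098), and 0.59 without the library that stood apart. Of the droplet enzymes that remake phosphatidylcholine, LPCAT1 fell by 0.27 (SE 0.0329, limma adjusted p = 9.8e-05), with 101.0 to 104.4 CPM against 120.2 to 125.7 CPM, and LPCAT2 rose by 0.31 (adjusted p = 0.019). The lipid transfer protein VPS13C fell by 0.28 (SE 0.0497, limma adjusted p = 0.00204) and the acyltransferase AGPAT5 by 0.20 (SE 0.0392, adjusted p = 0.00344), while its relative AGPAT4 rose by 0.71 (adjusted p = 0.0203) from 60 to 65 reads in control to 85 to 126 at day 15. LPCAT2 lost its call without control replicates 1 (limma adjusted p = 0.0738) or 2 (0.0714) or day 15 replicate 3 (0.0604), and AGPAT4 without control replicates 1 (0.0699) or 2 (0.0884) or day 15 replicate 1 (0.105). Without the library that stood apart the log2 folds were -0.28 for LPCAT1, 0.30 for LPCAT2, -0.22 for VPS13C, -0.22 for AGPAT5 and 0.64 for AGPAT4, and all passed limma's test.

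The remaining named falls in T47D at day 15 rested on few reads or on single libraries. FABP4, a fatty acid carrier, had 24 to 31 reads in control and 8 to 16 at day 15 (log2 fold -1.19, SE 0.284, limma adjusted p = 0.0141), and its call was lost without control replicate 1 (0.0703). The lipase DDHD2 (-0.13, limma adjusted p = 0.0296) lost its call without control replicates 1 or 2, day 15 replicate 1 or day 3 replicates 1 or 2 (up to 0.127). SOAT1, which esterifies cholesterol (-0.14, limma adjusted p = 0.0267), lost it without any of the 3 controls or day 15 replicate 1 (up to 0.113). DHRS3 (-0.28, limma adjusted p = 0.0463) and CAVIN1 (-0.23, adjusted p = 0.0419) kept it without day 15 replicate 2, and CAVIN1 also without day 15 replicate 1, and lost it without each other library (up to 0.203 and 0.131). For LSS the call depended on the library that stood apart: it was at 107.5 to 112.4 CPM in control and 91.8, 111.6 and 79.6 CPM at day 15, where 111.6 CPM was that library. Its log2 fold was -0.24 (limma adjusted p = 0.146) with all libraries and -0.36 (adjusted p = 4.88e-08) without that library. Other genes named for MDA-MB-231 were likewise not called in T47D at day 15 with all libraries, but called without that library. TMEM159 (-0.22, limma adjusted p = 0.000467) and ABHD12 (-0.11, adjusted p = 0.0325) were then lower, and ACSL3 (0.15, adjusted p = 0.000527) was higher.

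LPIN1 and SEL1L responded differently in the lines, with a difference of -0.38 (limma adjusted p = 0.00159) for LPIN1 and -0.21 (adjusted p = 0.00211) for SEL1L at day 3. In T47D LPIN1 ranged over 15.4 to 16.5 CPM in control and 14.3 to 16.1 CPM at day 3. HILPDA, a further inhibitor of PNPLA2, had log2 folds of -0.08 (95% interval -0.25 to 0.09) in MDA-MB-231 and -0.07 (-0.16 to 0.03) in T47D at day 15, and neither was called. In T47D it was called without the library that stood apart (-0.11, limma adjusted p = 0.0387). The other genes of interest gave no call against control. LIPE, the hormone-sensitive lipase, had -0.08 (95% interval -0.28 to 0.12) and -0.13 (-0.68 to 0.41), the latter at 18 to 30 reads and -0.32 without the library that stood apart (limma adjusted p = 0.457). PLIN4 (0.21, 95% interval -0.14 to 0.56, and 0.19 without that library) and PLIN5 (0.00, -0.29 to 0.29, and -0.11 without it) were listed in T47D only, and BSCL2 (0.23, -0.22 to 0.67) in MDA-MB-231 only. PLIN1 was listed in neither table.

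The genes whose log2 values followed G0S2 most closely over the 9 libraries of a line, by Pearson's coefficient and among those whose mean log2 CPM reached 1, were NRCAM (0.984), CENPT (0.983) and C21orf91 (0.981) in MDA-MB-231. In T47D they were the immunoproteasome subunit PSMB8 (0.995), the interferon-induced IFI44 (0.995) and TES (0.995). The libraries share the step from control to doxycycline, and the coefficients are given as a description. At day 15 the log2 folds were 1.34 for NRCAM, 0.30 for CENPT and 0.54 for C21orf91, and 0.63 for PSMB8, 4.82 for IFI44 and 4.73 for TES. None of the 9 other genes of the set was among these.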

How the data were processed

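The deposited tables, 1 per line, hold log2 values per gene and library; per the submitters' processing notes the authors used STAR, featureCounts and limma on GRCh38.p13. Their versions, how libraries were scaled, which low genes were dropped and whether strand was used are each not given in the sources used here. All deposited log2 values gave whole reads within 0.1 once about 3 reads of pseudocount, scaled by library size, were removed; CPM in the text are these reads over the scaled library size. The column labels gave each library's group.

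Folds and tests used the deposited log2 values of all listed genes, fitted in R 4.3.3 with limma 3.58.1 and statmod 1.5.0 (group means over the 9 libraries of a line, trended and robust moderation, Benjamini-Hochberg adjustment, called at 0.05). Differences between lines were contrasts over the 18 libraries and the genes in both tables. The fits within a line were also run on simulated counts with known changes at day 3. These used the same dispersion for every gene and held no library that stood apart. They therefore cannot show how the fits handle such a library. Per-kilobase levels and positions used the GENCODE annotation on GRCh38.

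The 10 genes, the pathway and marker lists and the tests were chosen with earlier results of these data known. Named pathway genes are those called within a line, up to 5 per list and line by size of fold, and 7 named whatever their call (HILPDA, PLIN1, PLIN4, PLIN5, LIPE, SOAT1, BSCL2). The values of LSS, HILPDA, TMEM159, ABHD12 and ACSL3 in T47D without 1 library were singled out after they were seen. So were those of AQP3, LPCAT1, LIPA and ACSL4 at day 3 in MDA-MB-231 under other fits. Alternatives were another pseudocount (0.5 reads, or log2(CPM + 1)), a filter at mean log2 CPM of 1, libraries centred on their median, plain moderation, voom on recovered reads, only the 6 libraries compared, the replicate number as a block, and each library left out.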

Additional observations from a re-analysis of the deposited data

Results flagged for a closer look

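The results here are those whose response differed between the lines by limma's test of the difference (T47D fold less MDA-MB-231 fold, log2). Among the 10 genes these were G0S2 at day 3 (4.81) and day 15 (5.04), and at day 15 DGAT2 (0.66), MGLL (0.48) and PNPLA2 (0.32). The G0S2 difference goes with control levels of 25.02 to 25.48 CPM in MDA-MB-231 and 0.277 to 0.900 CPM in T47D. The PNPLA2 difference was lost without the T47D library that stood apart (0.23, limma adjusted p = 0.0571).

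Among the other pathway genes, HSD17B11 differed by 2.02 at day 3 and 3.57 at day 15, AGPAT4 by 0.73, ACSL4 by 0.46 and LPCAT2 by 0.38 at day 15. The fold, not the level, was lower in T47D for LPIN1 (-0.38 at day 3 and -0.28 at day 15), SEL1L (-0.21 and -0.18), SOAT1 (-0.19 and -0.17), and at day 15 VPS13C (-0.31) and LPCAT1 (-0.25). Low read numbers limit AGPAT4 and HSD17B11 in T47D, with 60 to 65 and 5 to 10 reads in the control libraries. Groups of 3 libraries were too small to look for single outlying values.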

How the results depend on the processing

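No result changed direction while called. Of 72 called gene results, 36 kept their call under every alternative and 43 with each library left out. For the 10 genes within lines these numbers were 8 and 9 of 15. They include G0S2, induced by design, whose calls against control held under every alternative in both lines. Counts over all genes moved most. Without trended and robust moderation, 63, 232 and 32 genes were called in MDA-MB-231 (day 3, day 15, and day 15 against day 3, the last with 0 of the 9 genes) and 549 in T47D for day 15 against day 3 (1 of the 9). With only the 6 libraries compared, MDA-MB-231 had 476 at day 3 and 776 at day 15, and T47D 921 (2 of the 9, G0S2 and CD36), 996 and 463 (0 of the 9). Leaving out single libraries gave 119 to 418, 457 to 1897 (3 to 5 of the 9 genes) and 124 to 1664 (1 to 4) in MDA-MB-231, and 182 to 746, 930 to 3705 and 403 to 2604 (0 to 2) in T47D, in the same order. Of these, 3705 was without T47D day 15 replicate 2. Between lines the ranges were 232 to 485 at day 3 and 860 to 1899 at day 15. Centring libraries on their median moved the share of calls that were higher in MDA-MB-231 from 41.8% to 56.7% at day 15 and from 46.4% to 67.2% for day 15 against day 3. HSD17B11, FABP4, AGPAT4 and BSCL2 gave no value under the filter in the line where they are low. Causes were not tested.

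The replicate numbers were not taken to pair the libraries, since not every same-numbered pair correlated above 0.1: 4 of 9 pairs did in MDA-MB-231 (-0.03 to 0.28) and 0 of 9 in T47D (-0.41 to 0.07). As a hint from the data only, 6 of the 9 MDA-MB-231 libraries and 0 of the 9 T47D libraries correlated best with their own number. With the number as a block, 637, 2273 (5 of the 9 genes, with MGLL at limma adjusted p = 0.0177 and PLIN3 at 0.0163 added) and 1788 genes were called in MDA-MB-231, and 511 (1 of the 9) in T47D for day 15 against day 3. Of the 277 gene results, 17 changed call.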
